A study of Rattus norvegicus with 4 samples.

Results

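Nos2, Cx3cl1, Cxcr4, Il6r, Tnfrsf1a and B2m are the cytokine, chemokine and inflammatory signal genes described here, in rat total RNA read on an Affymetrix rat neurobiology oligonucleotide array. They were taken as every probe set that the array's annotation assigns to exactly 1 of these symbols, which gave 16 of the 1263 probe sets other than controls: 7 for Nos2, 4 for Cx3cl1, 2 for Cxcr4 and 1 each for Il6r, Tnfrsf1a and B2m. The genes were selected on signal differences between these same arrays, so their levels and differences below are a description and carry no test. The 4 arrays held 1 digested and 1 undigested sample at day 7 and 1 of each at day 1 of a time course, all labelled brain, adrenal medulla. The labels give no strain, age or sex, do not say what was digested or which cells were cultured or dissected, and name no agent, so a digested sample differs from its undigested partner in a step that cannot be described further. With 1 array per group there was no spread between replicates, and every comparison sets 1 array against 1 array.

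Inflammatory signals reach a cell through secreted ligands and their receptors. Interleukin 6 binds the receptor coded by Il6r, tumour necrosis factor binds the receptor coded by Tnfrsf1a, and CXCL12 binds the chemokine receptor coded by Cxcr4. Cx3cl1 codes for fractalkine, a chemokine that neurons hold on the membrane or shed and that microglia read. Nos2 codes for the inducible nitric oxide synthase, which cells make after cytokine stimulation, and B2m for beta-2-microglobulin, the light chain of class I histocompatibility molecules. Chromaffin cells of the adrenal medulla are known to answer to interleukin 6 and to tumour necrosis factor.

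The stretches before the transcription start of B2m and Cx3cl1 are shown because B2m is the member whose window held matches to the inflammatory motifs searched, and because Cx3cl1 had the widest range of signals among the analysed members, 5.26-fold. Both are RefSeq sequences of build GRCr8, the 250 bases before the start, on chromosome 3 for B2m (chr3:129549080-129549329, plus strand) and on chromosome 19 for Cx3cl1 (chr19:10242821-10243070, minus strand). Capitals mark motif matches.
B2m: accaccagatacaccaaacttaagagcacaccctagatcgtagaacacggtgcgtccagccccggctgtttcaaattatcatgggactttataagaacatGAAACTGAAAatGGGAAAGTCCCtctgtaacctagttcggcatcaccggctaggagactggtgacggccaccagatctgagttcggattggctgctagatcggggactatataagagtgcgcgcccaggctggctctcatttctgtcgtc
Cx3cl1: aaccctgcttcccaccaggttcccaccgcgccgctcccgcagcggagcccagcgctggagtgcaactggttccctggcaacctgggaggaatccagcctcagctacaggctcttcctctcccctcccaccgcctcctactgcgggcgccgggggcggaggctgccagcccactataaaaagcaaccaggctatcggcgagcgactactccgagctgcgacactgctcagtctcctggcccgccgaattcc
The RefSeq promoter table held 5 of the 6 members, and Nos2 was not among them. In windows of 300 bases, from 250 before to 50 after the start, 4 motifs were searched on both strands. An NF-kappa-B type site was GGGA and CC with any 4 bases between them, the STAT type sites were TTC and GAA with any 3 or any 4 bases between them, and an interferon response type site was GAAA and GAAA with any 2 bases between them. B2m held the NF-kappa-B type match GGGAAAGTCC starting at -138 from the transcription start. It overlaps a match on the other strand that reads GGAAAGTCCC on the printed one. The interferon response type match GAAACTGAAA starts at -150. Cx3cl1, Cxcr4, Il6r and Tnfrsf1a held none of the 4 motifs in their windows. Of all 33469 windows in the table, 19.3% held the NF-kappa-B type, 8.87% the STAT type with 3 bases between, 7.28% that with 4 and 3.92% the interferon response type. A match is a run of letters and does not show that a factor binds there.

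The signals were first scaled so that every array had the same median, as set out under the processing. A signal at or under 51.8, the 20th percentile of all scaled values, was put at that floor and has no order below it. Probe sets with a mean signal of at least 229 over the arrays formed the analysed set of 632, and a difference of at least 2-fold (log2 of 1) either way was counted. That set held 7 of the 16 member probe sets, and every one of the 6 genes had at least 1 in it. Nearest to the limit were the Cx3cl1 probe set AF030358_at just inside, with a mean of 239, and the Nos2 probe set D83661_s_at just outside, with 226. Probe sets for yeast genes, which rat RNA does not hold, read from 10.8 to 197 over the 4 arrays, and 7 of the 16 member probe sets stayed under that highest value on all arrays. Of the 28 values of the analysed members, 2 lay under it, those of Nos2 and Cx3cl1 on the digested day 7 array.

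The arrays themselves differed. Control transcripts added at hybridisation were read by 9 probe sets. Their median log2 was -1.35 on the digested day 7 array against the mean of the other arrays. The undigested day 7 array had the highest 3′ to 5′ signal ratio of beta-actin, 2.66, against 1.35 to 1.48 elsewhere. The label of adrenal medulla could be set against 6 of 11 chromaffin cell markers on the array, whose summed scaled signal was 252224 and 386066 in the digested and undigested samples at day 7, and 304156 and 280858 in those of day 1. Th, the rate-limiting enzyme of catecholamine synthesis, carried most of it, and no adrenal cortex or lymphocyte marker of the lists was on the array. The sum over 19 neuron marker probe sets was 198331 and 222553 on the digested and undigested day 7 arrays and 321291 and 294934 on those of day 1. Snap25 made up the largest part of it, and the markers did not move together. Day 7 minus day 1 in undigested samples was a log2 of -0.77 for Snap25 and 0.64 for Eno2. By the brightest analysed probe set of 8 neuron genes, the median log2 was -0.03 in undigested and -0.52 in digested samples. Of 25 microglia and macrophage markers the array held only Itgam, an integrin of myeloid cells, at 93.9 and 18.4 on the digested and undigested day 7 arrays and 7.92 and 123 on those of day 1, all within or under the range of the yeast probe sets. In the same array order, the summed signal was 6917, 5721, 12083 and 11726 for 5 of 10 astrocyte markers, 32477, 37203, 31593 and 31927 for 7 of 11 oligodendrocyte and Schwann cell markers, and 664, 505, 367 and 590 for 3 of 15 fibroblast and endothelial markers. A single gene, Glul, carried most of the astrocyte sum, and Ngfr most of the oligodendrocyte and Schwann cell sum. These sums therefore say little about the other markers of their lists.

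**Figure D1:**
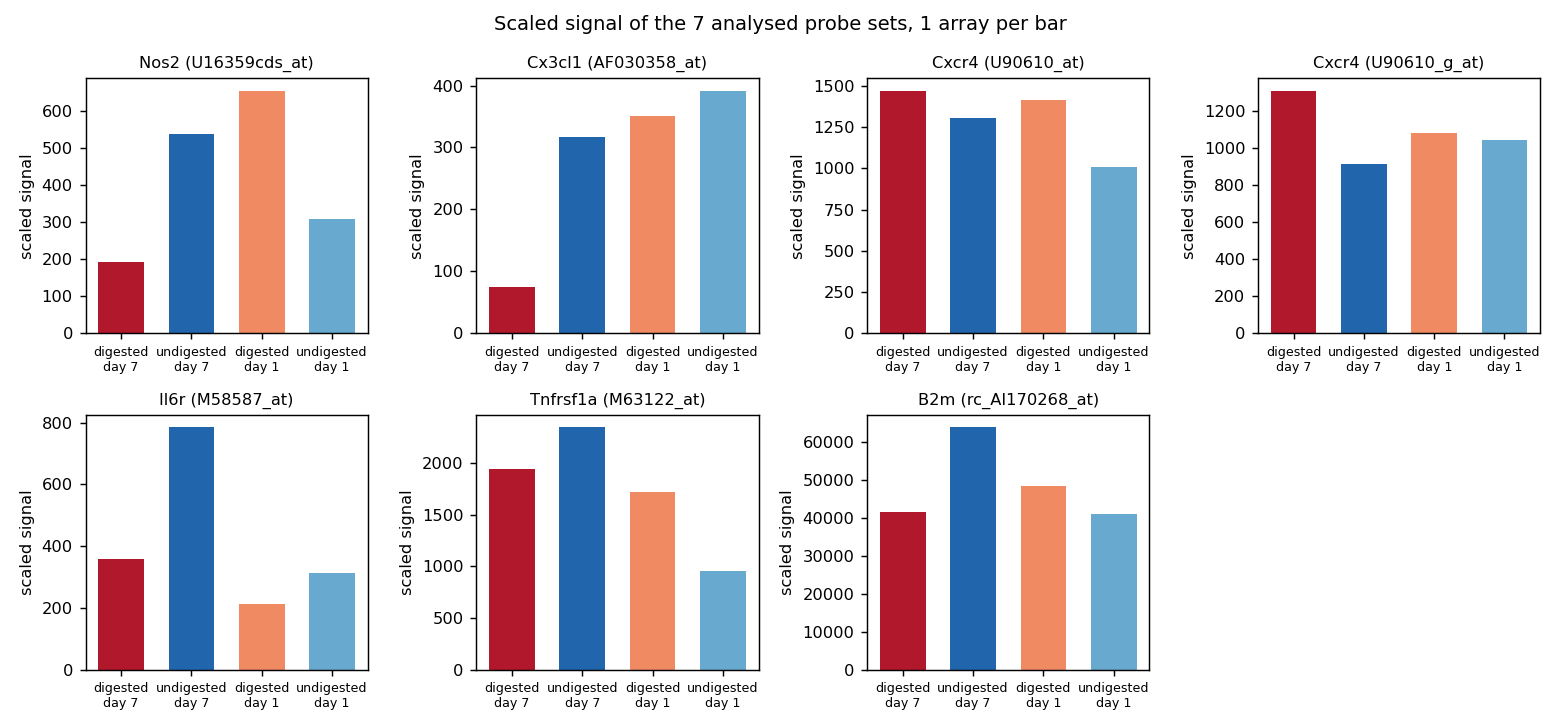
Scaled signal (linear axis from 0) of the 7 analysed probe sets of the 6 genes, 1 bar per array and 1 array per group, so no error can be drawn. Il6r, Tnfrsf1a and B2m stand highest on the undigested day 7 array, and Nos2 and Cx3cl1 lowest on the digested day 7 array.

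The inducible nitric oxide synthase gene was read by 7 probe sets that did not give 1 pattern. Its brightest, U16359cds_at, had signals of 193 in the digested and 537 in the undigested sample at day 7, and of 656 in the digested and 308 in the undigested sample at day 1. It was thus lower with digestion at day 7 (log2 -1.48, 2.79-fold) and higher at day 1 (log2 1.09, 2.13-fold). The 193 lies within the range of the yeast probe sets over the 4 arrays, though above the 154 they reached on its own array. That array is the one with the low hybridisation controls, whose part in the result was not tested. In the day 7 comparison 4.4% of the analysed probe sets lay as far from 0, and in the day 1 comparison 2.8%. Between the days it was lower at day 7 in digested samples (log2 -1.77) and had a log2 of 0.80 in undigested samples. In the order of its levels, digested day 1 and undigested day 7 lay 1.22-fold apart, which is less than the spread between probe sets of a gene (pooled SD 0.51 on the log2 scale for that pair). The later steps, of 1.74-fold and 1.60-fold, were larger than the spread for their pairs. This spread comes from different probe sets of 1 gene on the same arrays and is no measure of variation between samples. It is pooled over all 632 analysed probe sets, where those of Nos2, Il6r and Cx3cl1 are among the dimmer (ranks 531, 536 and 619 by mean signal). Outside the analysed set it was larger, with a pooled SD of 0.94 for the day in undigested samples, above the 0.80 of U16359cds_at there.

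None of the other Nos2 probe sets repeated the opposite digestion differences of U16359cds_at at 2-fold. D83661_s_at read 212 and 382 on the digested and undigested day 7 arrays and 153 and 211 on the digested and undigested day 1 arrays, lower with digestion at both days (log2 -0.85 and -0.46). U03699complete_seq_at read 181 and 88.9 at day 7 and 154 and 225 at day 1 in the same order, higher with digestion at day 7 (log2 1.03) and lower at day 1 (log2 -0.54), the reverse of U16359cds_at. Those probe sets target the same transcript by annotation, yet their digestion differences point in different directions.

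U48829_s_at had 77.8 on the digested and 176 on the undigested day 7 array, a log2 of -1.18, and 58.3 and 53.0 on the digested and undigested day 1 arrays. AF006619_s_at read 94.2 and 95.3 at day 7 and 61.9 and 64.8 at day 1, with digestion differences of -0.02 and -0.07. S71597_s_at stood out on 1 array, with 165 on the digested day 1 array against 37.5 on the undigested one, and 42.7 and 52.0 on the digested and undigested day 7 arrays. Since its undigested day 1 value lies under the floor, its fitted day 1 log2 of 1.67 depends on where the floor was set. D44591_s_at was under the floor on all 4 arrays, at 10.2 to 24.8.

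Counted over the 7 Nos2 probe sets, 5 read lower and 1 higher with digestion at day 7, and 3 read higher and 3 lower at day 1, with D44591_s_at at the floor in each pair. The 5 include AF006619_s_at at a log2 of -0.02 and S71597_s_at at -0.003, whose digested value was put at the floor. The median log2 over them was -0.02 at day 7 and 0.00 at day 1, against -1.48 and 1.09 for the brightest probe set. In undigested samples 5 were higher and 1 lower at day 7 than at day 1, and in digested samples 4 were higher and 2 lower. S71597_s_at is among the 5 by a log2 of only 0.003, against a day 1 value put at the floor. Among genes with several probe sets outside the analysed set, the pooled SD among the probe sets came to 0.95 in the day 7 digestion comparison and 0.89 in that of day 1, against 0.52 and 0.32 within it, so the dim Nos2 probe sets vary on a scale close to the differences they show.

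**Figure D2:**
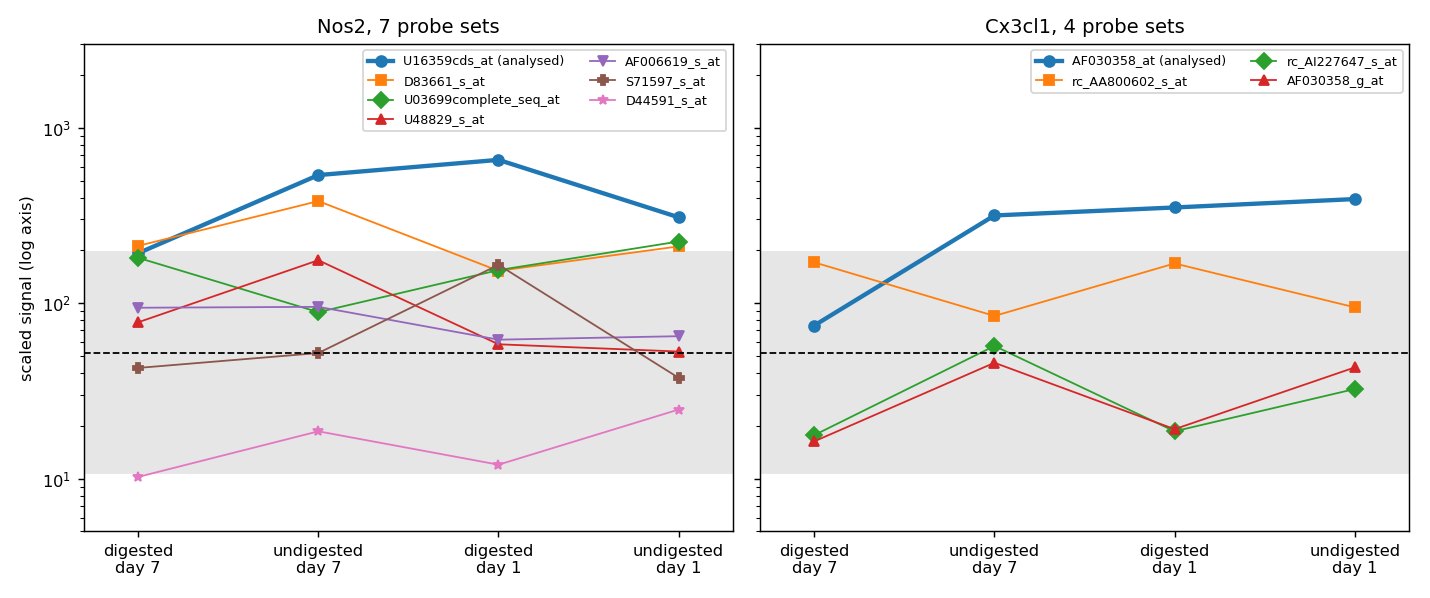
Scaled signal (log axis) of all 7 Nos2 and all 4 Cx3cl1 probe sets on the 4 arrays, with lines only to join the points of a probe set, the dashed line at the floor of 51.8 and the grey band over the yeast probe sets (10.8 to 197). The analysed probe set of each gene, in a thick line, leaves the band on 3 of the 4 arrays, and the other probe sets of a gene do not follow it.

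Fractalkine showed the widest range of signals among the analysed members, and 1 array carried it. AF030358_at read 74.6 in the digested and 316 in the undigested sample at day 7, and 351 in the digested and 392 in the undigested sample at day 1. The 3 higher values followed each other in steps of 1.12-fold and 1.11-fold, within the spread between probe sets, and the digested day 7 value lay 4.24-fold under the next. Its log2 difference was -2.08 for digestion at day 7, rank 10 by size among the analysed probe sets, and -0.16 at day 1. Day 7 minus day 1 gave -2.23 in digested samples, which only 0.8% of the analysed probe sets matched or passed in size, and -0.31 in undigested samples. That low value lies within the range of the yeast probe sets, so the fold is imprecise, and with a floor at the 40th percentile the day 7 digestion difference was -0.96. It also lies on the array with the low hybridisation controls, whose part in the result was not tested.

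The other probe sets of Cx3cl1 were dim. rc_AA800602_s_at had 171 and 84.5 on the digested and undigested day 7 arrays and 168 and 94.6 on the digested and undigested day 1 arrays. It was higher with digestion at both days (log2 1.01 and 0.83), the opposite direction to AF030358_at, and its day difference in digested samples was a log2 of 0.02. An ID ending in _s_at, here and among the Nos2 probe sets above, marks a probe set whose probes can be shared between related sequences.

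AF030358_g_at, made from the same sequence record as the brightest probe set, read 16.3 and 45.7 at day 7 and 19.1 and 43.0 at day 1 for digested and undigested samples, all under the floor, where values have no order. rc_AI227647_s_at read 17.7 and 57.0 at day 7 and 18.6 and 32.4 at day 1, with 1 value above the floor. The 4.24-fold difference therefore rests on 1 probe set of the 4.

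Cxcr4, whose product guides migrating cells along CXCL12, was the member with the flattest levels. U90610_at read 1473 with and 1306 without digestion at day 7, and 1418 with and 1007 without digestion at day 1. U90610_g_at, from the same sequence record, read 1309 and 912 at day 7 and 1080 and 1042 at day 1 in the same order. Both were higher with digestion at day 7, by log2 0.17 and 0.52, and at day 1, by 0.49 and 0.05, though the 0.05 of U90610_g_at changed sign under other scalings (lowest -0.14). The whole range over the arrays was 1.46-fold for U90610_at and 1.44-fold for U90610_g_at. Every step between neighbouring levels was smaller than the spread between probe sets of a gene. Of the digestion differences, the 0.49 of U90610_at at day 1 was larger than the pooled SD of 0.32 for that pair. The 0.521 of U90610_g_at at day 7 just passed its 0.515, and the other probe set stayed under the spread each time. Both probe sets placed the digested day 7 and digested day 1 arrays highest and next highest, and differed in which undigested array was lowest.

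Il6r, the ligand-binding chain of the interleukin 6 receptor, read 357 with and 785 without digestion at day 7, and 214 with and 313 without digestion at day 1. The lower value of each pair was the digested one. Both day 7 values lay above both day 1 values, the nearest being 357 (digested day 7) and 313 (undigested day 1). Digested minus undigested was -1.14 at day 7 and -0.55 at day 1 on the log2 scale. Day 7 minus day 1 was 1.33 in undigested and 0.74 in digested samples. The undigested day 7 array stood 2.20-fold above the next, and that step was 2.2 times the spread between probe sets, whereas digested day 7 and undigested day 1 differed by 1.14-fold, within it. Only M58587_at reads the gene, so no other probe set checks it.

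Tnfrsf1a, the main receptor through which tumour necrosis factor signals death or NF-kappa-B activity, set 1 array apart at the low end. M63122_at read 1946 with and 2345 without digestion at day 7, and 1715 with and 957 without digestion at day 1. The 3 higher values lay within 1.21-fold and 1.13-fold steps of each other, within the spread between probe sets, and the undigested day 1 array was 1.79-fold under the next, 2.6 times that spread. The log2 difference was -0.27 for digestion at day 7 and 0.84 at day 1, and 1.29 for day 7 minus day 1 in undigested and 0.18 in digested samples. At day 1 the difference fell short of 2-fold, and 5.1% of the analysed probe sets were as far from 0.

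B2m, part of every class I molecule on the cell surface, passed 2-fold in none of the 4 comparisons. rc_AI170268_at read 41588 with and 63926 without digestion at day 7, and 48526 with and 41159 without digestion at day 1. The undigested day 7 array was highest and the other 3 lay within 1.18-fold of each other. Digestion differences were log2 -0.62 at day 7 and 0.24 at day 1, and day differences 0.64 in undigested and -0.22 in digested samples. No step between neighbouring levels exceeded the spread between probe sets. Across more than 1 step, the -0.62 and the 0.64 were larger in size than it (pooled SD 0.52 for each pair).

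Il6r, Tnfrsf1a and B2m shared their highest array, the undigested one of day 7, which is also where 242 of the 632 analysed probe sets (38.3%) were highest. That array had the beta-actin ratio of 2.66 and the highest sum of chromaffin cell markers, 386066 against 252224 to 304156, and the part of either in these levels was not tested. Th, Dbh, Ddc and Penk were highest there, while Npy and Slc18a2 were not. Npy read 376 there against 577 and 574 on the digested and undigested day 1 arrays. Nos2 and Cx3cl1 were lowest on the digested day 7 array, as were 144 of the analysed probe sets (22.8%). In a mixed sample, fewer cells of a type and less RNA per cell cannot be told apart.

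Over the analysed members, 3 of 7 probe sets passed 2-fold for digestion at day 7 (Nos2, Cx3cl1 and Il6r), each lower in the digested sample, where 11.4% of all analysed probe sets passed. At day 1 it was 1 of 7 (Nos2, higher in the digested sample) where 3.48% passed. Between the days it was 2 of 7 in undigested samples (Il6r and Tnfrsf1a, higher at day 7) where 13.3% passed, and 2 of 7 in digested samples (Nos2 and Cx3cl1, lower at day 7) where 8.07% passed. Nothing is read from these shares, since the genes were chosen on the same differences. The median log2 of the 7 was -0.62 in the day 7 and 0.24 in the day 1 digestion comparison, beside -0.05 and 0.12 over all analysed probe sets. In the day comparisons it was 0.64 for undigested and 0.06 for digested samples, beside 0.17 and 0.04. The day 7 digestion comparison and the undigested day comparison share the undigested day 7 array, and each other pair of 1 digestion and 1 day comparison likewise shares 1 array.

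Over all 16 member probe sets, 6 passed 2-fold for digestion at day 7, 2 higher and 4 lower in the digested sample, where 21.6% of all 1263 passed. At day 1 it was 2 of 16, against 16.5% of all. Between the days it was 4 of 16 in undigested samples, against 22.5%, and 3 of 16 in digested samples, against 19.2%. With the dim probe sets included, the members' counts at day 1 and between the days thus lay near those of the whole array.

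**Figure D3:**
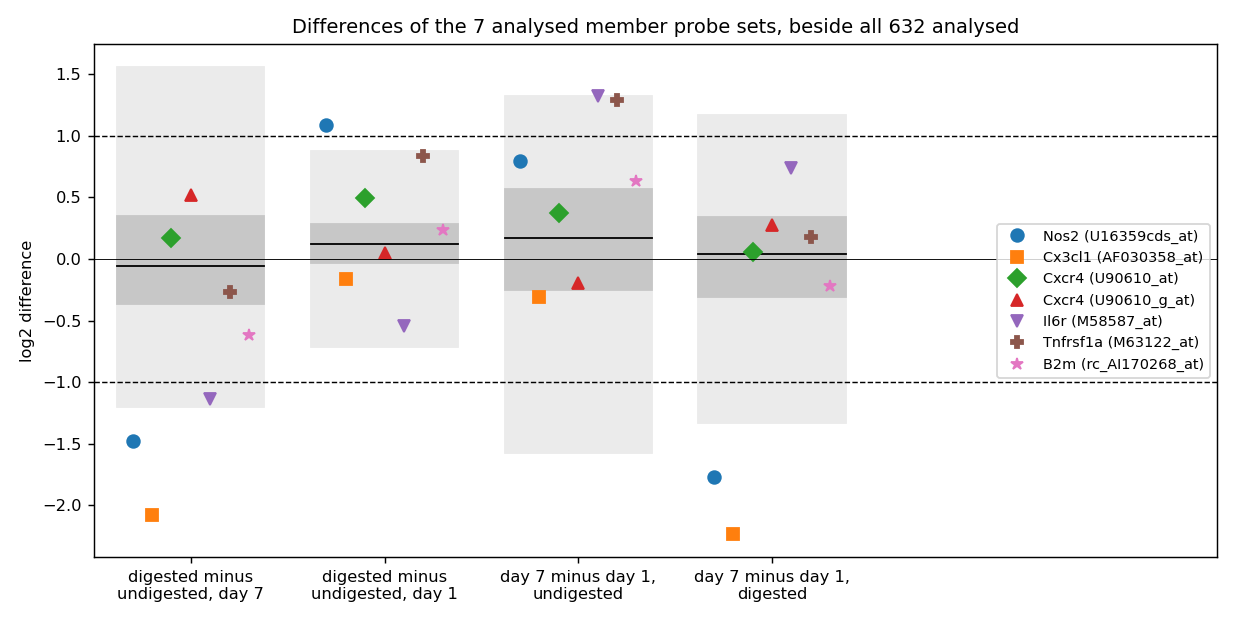
Log2 differences of the 7 analysed probe sets of the 6 genes in the 4 comparisons (points), beside the middle 50% (dark grey), the middle 95% (light grey) and the median (line) of all 632 analysed probe sets, with dashed lines at 2-fold. Nos2 and Cx3cl1 lie below the light grey range in both comparisons that use the digested day 7 array, and Nos2 lies above it for digestion at day 1.

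Subtracting the day 1 digestion difference from the day 7 one gave a negative value for 6 of the 7 analysed probe sets, as for 60.0% of all 632. The median over all 632 was -0.18, and 0.09 in the values as deposited, beside -0.86 over the 7. It was -2.57 for Nos2 (U16359cds_at), -1.92 for Cx3cl1, -1.11 for Tnfrsf1a, -0.86 for B2m, -0.59 for Il6r and -0.32 and 0.47 for the Cxcr4 probe sets U90610_at and U90610_g_at. These 3 past 2-fold stand beside 14.4% of all analysed probe sets, and over all 16 member probe sets 6 passed, beside 29.0% of all 1263. The difference uses every array and leaves no residual.

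The ligands and partners of these genes were dim or were not read. The interleukin 6 gene Il6 had 147 and 26.4 on the digested and undigested day 7 arrays and 68.1 and 13.8 on those of day 1 by M26744_at, with both undigested values under the floor, and its other probe set was under the floor throughout. Tnf, the gene of tumour necrosis factor, had 145 on the digested and 34.6 on the undigested day 7 array and 45.2 and 36.5 on those of day 1, 3 of them under the floor. Both higher values stand on the digested day 7 array, where their receptors Il6r and Tnfrsf1a read 357 and 1946, but they lie within the range of the yeast probe sets. The second tumour necrosis factor receptor gene Tnfrsf1b was above the floor on 1 array, at 53.4.

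The other nitric oxide synthase genes, Nos1 of neurons and Nos3 of endothelium, were also outside the analysed set. Nos3 read 38.3 on the digested and 135 on the undigested day 7 array, and 121 and 100.2 on the digested and undigested day 1 arrays. Nos1 read 110 and 40.1 at day 7 and 122 and 100.4 at day 1 in the same order by its brighter probe set. The 2 genes differed with digestion at day 7 in opposite directions, on signals within the range of the yeast probe sets. The array held no probe set for Il6st, Cxcl12 or Cx3cr1, which code for the signal chain of the interleukin 6 receptor, the Cxcr4 ligand and the fractalkine receptor.

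Of 67 listed genes of cytokines, chemokines and their receptors, 39 were on the array and 13 analysed, 4 of them members. Each gene was counted by its brightest analysed probe set, and over all 17 analysed probe sets the counts past 2-fold were the same. Digestion at day 7 put 3 of the 13 past 2-fold, where 11.4% of all analysed probe sets passed. All were lower in the digested sample: Cx3cl1, Il6r and Il13, which codes for an interleukin of type 2 immunity. Only Il13 among them is not a member, and the members were chosen on these same differences. Il13 read 250.2 with and 773 without digestion at day 7, and 323 with and 406 without digestion at day 1. The list's median log2 was -0.27 in the day 7 and 0.09 in the day 1 digestion comparison, and 0.17 and 0.05 in the day comparisons of undigested and digested samples, beside the medians over all analysed probe sets given above. At day 1 none of the 13 passed 2-fold for digestion, where 3.48% of all analysed probe sets passed. Between the days 3 passed in undigested samples, all higher at day 7 (Il6r, Tnfrsf1a and Tgfb3), where 13.3% of all analysed passed. In digested samples 1 passed (Cx3cl1, lower), where 8.07% passed. Only Tgfb3 among these is not a member. Tgfb3, the gene of a transforming growth factor, was 2.52-fold higher at day 7 in undigested samples by U03491_g_at and 1.36-fold by the dimmer U03491_at from the same sequence record. Cxcr1, a receptor gene for neutrophil chemokines, read 355 and 486 on the digested and undigested day 7 arrays and 707 and 432 on those of day 1.

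Among the signalling genes behind these receptors, 2 had an analysed probe set past 2-fold, and in both the brightest probe set of the gene was not. Dim probe sets of Stat3, Socs3 and Casp1, outside the analysed set, also passed 2-fold in at least 1 comparison. Of 36 listed NF-kappa-B, JAK-STAT and tumour necrosis factor receptor signalling genes 11 were on the array and 9 analysed, with 21 probe sets. Counted by the brightest analysed probe set of each gene, none of the 9 passed 2-fold in any of the 4 comparisons. Counted over all 21 analysed probe sets, 1 was higher with digestion at day 7, where 11.4% of all analysed passed either way. Another was higher at day 7 in digested samples, where 8.07% passed, with none in the other 2 comparisons. The first was S77528cds_s_at of Cebpb, a gene of a transcription factor that acts behind interleukin 6, which read 7221 with and 3155 without digestion at day 7, a log2 of 1.19, where the brighter X60769mRNA_at gave -0.10. The other was U73142_at of Mapk14, the p38 stress kinase gene, at a log2 of 1.37, where the brightest of its 6 probe sets, U73142_g_at from the same sequence record, gave 0.53. Jak2, a kinase gene of cytokine receptors, came next in size with a log2 of 0.89 for digestion at day 7 by AJ000557cds_s_at, and its other probe sets gave 0.45 and 0.49. By the brightest probe set of each gene, the list's median log2 was -0.07 and 0.08 in the day 7 and day 1 digestion comparisons and 0.47 and 0.14 in the day comparisons of undigested and digested samples.

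Irf1 codes for an interferon regulatory factor of the kind that binds motifs like the one in the B2m window. By its brighter probe set it read 3182 on the digested and 4556 on the undigested day 7 array and 2915 and 2704 on those of day 1, highest where B2m was highest, while its other probe set, M34253_at, gave a log2 of -0.59 and -0.60 for digestion at day 7 and day 1.

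Nos2 stood in a list of nitric oxide and prostaglandin genes of which 6 of 23 were on the array and 3 analysed. Hmox1, the gene of the inducible haem oxygenase, read 35886 on the digested and 51838 on the undigested day 7 array and 27082 and 25244 on those of day 1, and was 2.05-fold higher at day 7 in undigested samples by its brightest probe set, rc_AI179610_at. Its other analysed probe set, J02722cds_at, was 1.64-fold higher there, short of 2-fold, and for digestion at day 7 it gave a log2 of 0.23 against -0.53 by rc_AI179610_at. Ptgs1, a cyclooxygenase gene, read 1019 and 1016 at day 7 and 627 and 727 at day 1. Of 19 listed class I presentation and interferon response genes, the array held B2m and Irf1, so class I heavy chains and transporters could not be set beside B2m.

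For each member that ranged at least 2-fold over the arrays, the 3 analysed genes with the nearest pattern were found by the distance between log2 values, each centred on its own mean over the 4 arrays, among 384 other genes. Nearest to Tnfrsf1a were Tgfb3, Dlgap4, a postsynaptic scaffold gene, and Kcnq3, a potassium channel gene, by the brightest probe set of each, at distances of 0.06, 0.07 and 0.17 beside a median of 0.95. Dlgap4 was taken by U67140_at, with a log2 of 0.79 for digestion at day 1. U67140_g_at, from the same sequence record, gave -0.26 there. Nearest to Cx3cl1 were Htr1d, a serotonin receptor gene, at 0.24, Itgb7, a gene of a leukocyte integrin, at 0.28, and Gabra3, a GABA receptor subunit gene, at 0.59, beside a median of 2.06. Itgb7 read 143 on the digested and 640 on the undigested day 7 array and 556 and 672 on those of day 1. Htr1d and Gabra3 read 85.5 and 147 on the digested day 7 array, so all of these neighbours share with Cx3cl1 a value there within the range of the yeast probe sets. Nearest to Nos2 were Csf2rb, the gene of the receptor chain that GM-CSF and related cytokines share, at 0.50, Chrm1, a muscarinic receptor gene, at 0.72 and Grin2d, an NMDA receptor subunit gene, at 0.74, beside 1.45. Csf2rb read 407 and 715 at day 7 and 1038 and 567 at day 1 for digested and undigested samples. Nearest to Il6r were Grip2, a synaptic scaffold gene, Alg10, a gene of protein glycosylation, and Bdkrb2, a bradykinin receptor gene, at 0.40, 0.40 and 0.48 beside 1.35. The distances describe these 4 arrays only, and those for Nos2 and Cx3cl1 rest on U16359cds_at and AF030358_at, which the other probe sets of these genes did not follow.

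**Figure D4:**
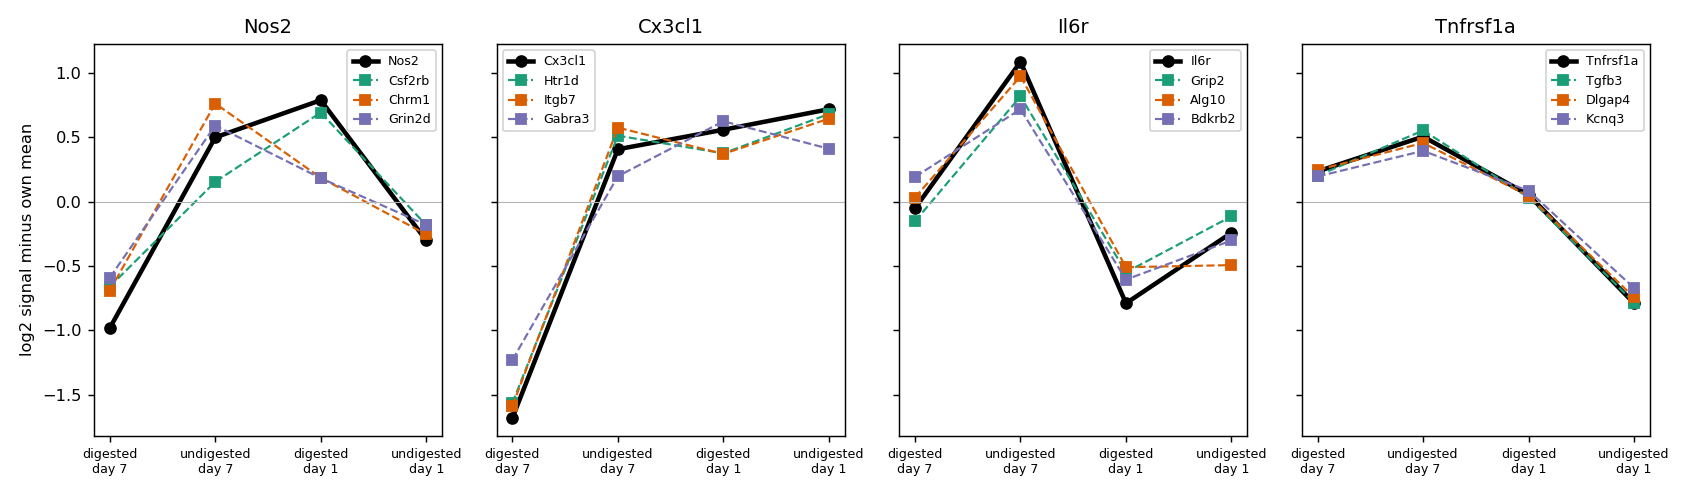
Log2 signal minus its own mean over the 4 arrays for Nos2, Cx3cl1, Il6r and Tnfrsf1a (black) and the 3 genes with the nearest pattern to each (dashed), with lines only to join the points of a gene. The curves around Tnfrsf1a lie almost on top of each other, and those around Nos2 lie farther apart on the undigested day 7 and digested day 1 arrays than on the other 2.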

How the data were processed

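Gene expression was measured in 4 rat total RNA samples, 1 array per group. As deposited, the values are linear signal intensities of 1322 probe sets, 59 of them controls. The authors' steps from scan to signal are not stated in the sources used here. The mean after trimming 2% at each end was 2515 to 2516 on every array, so the arrays appear to share a scaling. Gene names came from the platform's probe table, and all 16 member probe sets had the same symbol in a RefSeq gene table of assembly GRCr8.

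Controls were set aside, and the other 1263 probe sets of each array were brought to 1 shared median (factors 0.984, 1.09, 1.01 and 0.925 for digested and undigested day 7 and digested and undigested day 1), floored at the 20th percentile and taken to log2. With 1 array per group no test was made. The number of arrays limits the precision. Probe sets with a mean log2 at or above the median were analysed. The spread between probe sets of a gene is the pooled SD of log2 differences over 125 genes with 305 analysed probe sets. Named were all probe sets of the 6 members, the brightest first, fixed partners of the members, up to 3 genes per pathway list with the largest difference by any analysed probe set and the 3 genes of nearest pattern per member. The members and the 12 lists (4 of pathways, 8 of cell type markers) were chosen with earlier results of these data known. Alternatives were the values as deposited, quantile normalisation, cyclic loess (limma 3.58.1, R 4.3.3), thresholds of 1.5-fold and 3-fold, no filter on dim probe sets, an offset instead of a floor and a floor at the 40th percentile. Python 3.11.15 with pandas 2.3.3, numpy 2.4.6, matplotlib 3.10.9 and scipy 1.17.1 ran the other steps, and the steps were tested on simulated data.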

Additional observations from a re-analysis of the deposited data

Results flagged for a closer look

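The Nos2 probe set U16359cds_at passed 2-fold in opposite directions in the 2 digestion comparisons, which is why it is listed here. It was lower in the digested than in the undigested sample at day 7 (193 against 537) and higher at day 1 (656 against 308), and subtracting the day 1 digestion difference from that of day 7 gave -2.57 on the log2 scale. With 1 array per group the difference was not tested. The day 1 digestion difference of 1.09 fell short of 2-fold with the values as deposited (0.96) and with an offset instead of a floor (0.97). The 193 lies under the highest yeast value of 197, read on the digested day 1 array, but above the 154 reached on its own array. It stands on the array whose hybridisation controls had a median log2 of -1.35, whose part in the result was not tested. The other 6 Nos2 probe sets, all outside the analysed set, did not show opposite directions past 2-fold. For the same quantity U48829_s_at gave -1.31, S71597_s_at -1.68 and D83661_s_at -0.38, while U03699complete_seq_at gave 1.57 and AF006619_s_at 0.05. S71597_s_at had 2 values at the floor, and D44591_s_at was at the floor on all arrays.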

How the results depend on the processing

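Of 35 values (7 analysed member probe sets in 5 comparisons, the difference of digestion differences included), 33 kept their direction with the values as deposited, quantile normalisation, cyclic loess, a floor at the 40th percentile and an offset in place of the floor. The exceptions were Cxcr4 by U90610_at for the day in digested samples and by U90610_g_at for digestion at day 1, both near 0. All 11 differences past 2-fold kept their direction, and 6 of them stayed past 2-fold under all 5. The digestion difference of Cx3cl1 at day 7 was -0.96 with the higher floor and -1.54 with the offset, and its day difference in digested samples -1.12 and -1.67, since both settings act on the low signal of the digested day 7 array. The count of analysed member probe sets past 2-fold for digestion at day 7 was 3, with 1 at 3-fold and 6 of 16 without the filter on dim probe sets, and 2 in the values as deposited and with the higher floor. For digestion at day 1 it was 1, with 0 in the values as deposited, 0 with the offset, 0 at 3-fold, 2 at 1.5-fold and 2 without the filter. For the day in undigested samples it was 2, with 4 at 1.5-fold, 0 at 3-fold and 4 without the filter, and for the day in digested samples 2, with 3 at 1.5-fold and 3 without the filter. For the difference of digestion differences it was 3, with 5 at 1.5-fold, 2 at 3-fold and 6 without the filter, and 2 in the values as deposited, with quantile normalisation and with the higher floor. Other scalings moved the median of all analysed probe sets: it was -0.05, 0.12, 0.17 and 0.04 for digestion at day 7 and day 1 and for the day in undigested and digested samples, and 0.09, -0.01, -0.07 and 0.08 in the values as deposited. No paired analysis was possible because each group held 1 array and no result comes from a test.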
